A study of Mus musculus with 4 samples.

Results

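Genes of oxidative phosphorylation were followed in cardiac endothelium, the cells that line the vessels of the heart, after lipopolysaccharide (LPS). They were taken by symbol from the platform annotation, as all genes that begin with Nduf, Uqcr, Atp5 or Cox4 to Cox8, the genes Sdha to Sdhd, and Cycs and Cyc1. This gave 76 genes of the 11138 named genes measured, with 34 in complex I, 3 in complex II, 7 in complex III, 15 in complex IV, 16 in complex V and cytochrome c as the 1 other. The 76 genes were read by 86 oligonucleotides in 172 spots per array, and 8 of the genes had more than 1 oligonucleotide. The 34 genes of complex I include 6 assembly factors and the pseudogene Ndufs5-ps, those of complex IV include Cox7a2l, a factor of supercomplexes, and those of complex V include the pseudogene Atp5k-ps1.

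Mice were given LPS, a membrane component of Gram-negative bacteria, or saline into the peritoneal cavity, and endothelium was isolated from the hearts 4 h or 24 h later. Amplified RNA of the LPS mice was hybridised against that of the saline mice on 2-colour arrays of long oligonucleotides, 2 arrays per time. LPS RNA carried Cy5 on the first array of a time and Cy3 on the second, which was a dye reversal. The labels name no strain, sex, age, LPS dose, number of animals or way of isolating the cells, and no separate extract for the reversed array, so the 2 arrays of a time were counted as 1 replicate and the calls rest on fold sizes with no test. A limma fit that takes the arrays as separate samples is given only as an alternative in the closing section. Such arrays of bulk RNA cannot tell fewer cells of a type from less RNA per cell.

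Oxidative phosphorylation is the main source of ATP in most tissues. Complexes I and II pass electrons from NADH and succinate to ubiquinone, complex III hands them to cytochrome c, and complex IV transfers them to oxygen. Complexes I, III and IV pump protons across the inner mitochondrial membrane, and complex V, the ATP synthase, uses the gradient to make ATP. All subunits described here are encoded in the nucleus. Heart muscle is one of the tissues richest in these complexes, whereas endothelial cells are known to rely largely on glycolysis. Nuclear respiratory factor 1 (NRF1) and the ETS factor GABP are known regulators of many of these genes.

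What the members shared in sequence was read from RefSeq promoters of build GRCm38.p6, which reach from 250 bases before a start to 50 after it. Of the 76 genes, 64 had such a promoter. The NRF1 letters, which are GCGCA, any base and then GCGC, were found on either strand in 15 of them (23.4%), against 8.87% of the 8805 array genes with a promoter and 5.19% of all 27025 genes in the table. The ETS letters CCGGAAG were in 16 of the 64, against 14.9% and 9.93%. The YY1 letters AAGATGGCG were in 6 (9.38%), against 2.49% and 1.64%, the estrogen-related receptor letters TCAAGGTCA in 1, and the letters of interferon-response elements, which are TTTC, any 2 bases and then TTTC, in 2 (3.13%), against 3.85% and 3.99%. Of the 64 genes 27 held the NRF1 or the ETS letters and 4 held both. The 250 bases before the start, 5′ to 3′ on the gene's strand, are shown for 4 genes whose arrays are described next, 2 with matches and 2 without, and the capitals mark matches to the NRF1 or ETS letters on either strand.
Ndufa11 (GRCm38.p6, chr17:56717512-56717761, plus strand): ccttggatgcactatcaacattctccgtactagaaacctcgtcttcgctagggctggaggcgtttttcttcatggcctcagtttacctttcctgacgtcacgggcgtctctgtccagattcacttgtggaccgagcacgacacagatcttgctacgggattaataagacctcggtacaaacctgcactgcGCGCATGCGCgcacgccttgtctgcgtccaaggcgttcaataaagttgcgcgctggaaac
Atp5h (GRCm38.p6, chr11:115419920-115420169, minus strand): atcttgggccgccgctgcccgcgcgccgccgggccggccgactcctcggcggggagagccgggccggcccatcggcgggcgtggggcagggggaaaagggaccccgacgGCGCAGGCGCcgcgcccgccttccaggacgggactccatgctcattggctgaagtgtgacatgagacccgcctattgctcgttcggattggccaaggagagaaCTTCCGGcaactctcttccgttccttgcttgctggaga
Ndufb5 (GRCm38.p6, chr3:32736813-32737062, plus strand): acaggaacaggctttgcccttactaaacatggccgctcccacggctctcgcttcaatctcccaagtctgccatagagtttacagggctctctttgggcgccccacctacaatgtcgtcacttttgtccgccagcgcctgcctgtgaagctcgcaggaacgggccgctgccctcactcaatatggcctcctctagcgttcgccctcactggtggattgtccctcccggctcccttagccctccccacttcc
Cycs (GRCm38.p6, chr6:50566570-50566819, minus strand): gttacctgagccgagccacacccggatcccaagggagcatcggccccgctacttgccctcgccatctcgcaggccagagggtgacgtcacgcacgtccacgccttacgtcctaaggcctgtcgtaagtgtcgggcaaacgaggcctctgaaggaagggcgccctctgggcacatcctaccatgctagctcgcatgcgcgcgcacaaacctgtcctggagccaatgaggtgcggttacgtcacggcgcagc
The match in Ndufa11 begins 60 bases before the start, and those in Atp5h begin 141 and 38 bases before it. All 4 genes were called higher at 24 h. A match is a description of the letters and not a bound site. Only exact letters were searched, so the lack of a match does not show that a site is absent. The printed bases of Cycs hold a stretch that differs from the NRF1 letters by a single base.

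Values are log2 ratios of LPS over saline, where 1 is 2-fold. The ± is the SD between the dye-reversed pair (n = 2 arrays), so it holds the error of arrays and dyes, and the spread between animals cannot be read from it. A gene was called higher or lower where both arrays were at least 2-fold from 1 on the same side. The deposited table does not say which dye is on top. Here Cy5 was taken as the numerator, and values of arrays with LPS in Cy3 had their sign turned. Over all spots the deposited values of the arrays of a time correlated at only -0.06 at 4 h and -0.06 at 24 h. Over oligonucleotides whose 2 spots lay within 0.5 log2 units they correlated at -0.37 (n = 5023) and -0.50 (n = 3668), the sign that reversed dyes give, and of those 2-fold on both arrays 96.8% and 95.0% had opposite signs. This shows that the deposited values of a pair run in opposite directions, and it comes out the same whichever dye is the numerator. That higher means higher in LPS comes from the labelled dyes and the usual order of Cy5 over Cy3, so it is likely but not settled, and with the opposite numerator each higher would read lower. Of the 172 member spots, 13 to 21 per array had a ratio of exactly 1, with a tolerance of 1e-06 on the log2 scale. A further 1 to 10 per array had the deposited value -0.01436, which recurred in 254 to 809 spots of an array. The table does not say whether such values were measured or filled in. Atp5o, Cox6c and Uqcrc1 were within 0.1 log2 units of 0 in every spot of every array.

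At 4 h the oxidative phosphorylation genes stood about where other genes stood. Of the 76 genes 2 were called higher, Cycs and Sdhb, which is 2.63% of them against 2.25% of all genes, and 1 was called lower, Atp5md, against 0.997% of all genes. The median over the 76 genes was 0.04, and over all genes -0.02. Both arrays lay above 0 for 26 of the genes (34.2%, against 24.3% of all genes) and below 0 for 19 (against 25.6%). Here and at 24 h values next to 0 were counted by their sign, among them 0.01 for Cox6b1 and Ndufv2 on the Cy3 array of 4 h. Part of such counts thus gives no direction.

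Cytochrome c (Cycs), the mobile electron carrier that also starts the apoptosome once it is released from mitochondria, was at 1.45 on the array with LPS in Cy5 and at 2.46 on the one with LPS in Cy3, a mean of 1.96 ± 0.71. Its 4 spot values at 4 h ran from 0.70 to 2.58, all above 0. Sdhb, the iron-sulfur subunit of complex II, was at 3.01 and 1.04, a mean of 2.03 ± 1.40, with spot values from 0.65 to 5.01. Both genes were thus higher on each array, but no member was 2-fold in every spot at 4 h, higher (against 1.25% of all genes) or lower (against 0.323%). Atp5md, a small membrane subunit of the ATP synthase, was at -1.01 and -1.29, a mean of -1.15 ± 0.20.

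None of the other genes was called at 4 h. Uqcrh, the hinge protein of complex III, had a mean of 1.04 ± 0.35, with 0.79 and 1.28 on the arrays. Its 2 oligonucleotides differed, with means of 1.67 and 0.40. The highest gene of complex I was Ndufb7 at 0.72 ± 0.74 and the lowest Ndufb11 at -0.98 ± 0.57. In complex IV the range ran from Cox8a at -0.87 ± 0.07 to Cox7b at 0.64, where the arrays both gave 0.64, and in complex V from Atp5j at -1.23 ± 0.80 to Atp5l at 0.78 ± 0.26. Sdhc at -0.21 ± 1.47 was the lowest of complex II and Uqcr11 at -0.34 ± 1.09 that of complex III, both on arrays far apart. The pseudogene Ndufs5-ps was 2-fold on both arrays in opposite directions, as were 1.42% of all genes. The medians at 4 h were -0.07 for complex I, 0.35 for complex II, 0.25 for complex III, 0.27 for complex IV and 0.04 for complex V.

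At 24 h 10 of the 76 genes were called higher (13.2%, against 3.48% of all genes), and 1, Ndufv2, lower (1.32%, against 3.52%). The 10 were Ndufa2, Ndufa11, Ndufb5 and Ndufb11 of complex I, Uqcrfs1 of complex III, Cox7b and Cox7c of complex IV, Atp5h and Atp5l of complex V, and Cycs, with means from 1.47 to 2.19. Complex II had no called gene at this time. Sdhb was at -0.03 and 3.03 (a mean of 1.501 ± 2.16), so its arrays did not share a value, and Sdhd, a membrane anchor, was the lowest at -0.49 ± 0.30. Every spot was at least 2-fold higher for 8 of the 10 (10.5% of the 76 genes, against 1.87% of all genes), Ndufb11 and Cycs being the others. No member was 2-fold lower in every spot, against 1.78% of all genes.

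**Figure D1:**
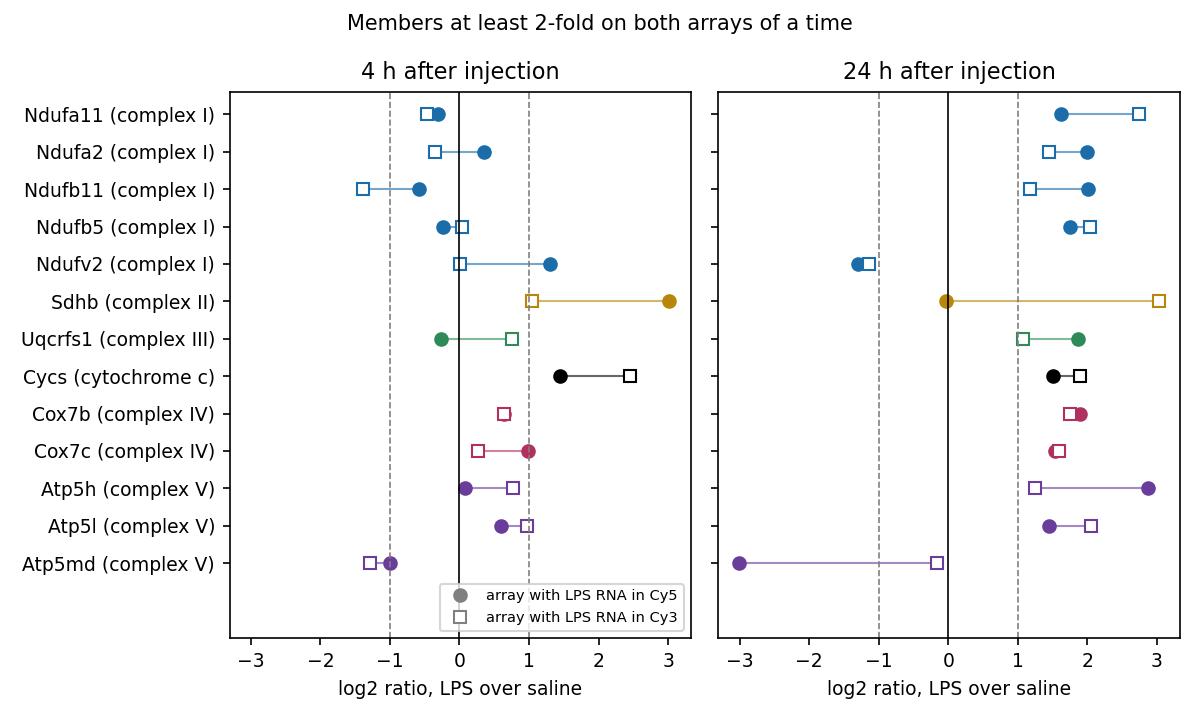
Each row is a gene called at 4 h or 24 h. The x axis is the log2 ratio of LPS over saline, filled circles are the array with LPS RNA in Cy5, open squares the array with LPS RNA in Cy3, and dashed lines mark 2-fold. At 24 h both arrays of 10 genes lie to the right of the dashed line, and at 4 h only those of Sdhb and Cycs do.

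In complex I the 4 genes called higher were accessory subunits, which surround the catalytic core. Ndufa11, of the membrane arm, was at 1.63 on the Cy5 array and 2.75 on the Cy3 array of 24 h, a mean of 2.19 ± 0.79, the highest of all 76 genes. Ndufb5 was at 1.75 and 2.03 (1.89 ± 0.20), and Ndufb11 at 2.00 and 1.18 (1.59 ± 0.58), both also of the membrane arm. Ndufa2, of the matrix arm, was at 2.00 and 1.44 (1.72 ± 0.39). The arrays of each of these genes lay on the same side and well clear of 0. Ndufb2 at 1.37 ± 0.57 and Ndufc1 at 1.05 ± 0.62, Ndufa12 at 0.89 ± 0.06 and Ndufaf3 at 0.69 ± 0.13, an assembly factor, were above 0 in every spot but not called.

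Of the 4 S and V subunits, which include the catalytic core, 0 were called higher, too few genes to set against the other subunits. Ndufv2, an iron-sulfur subunit of the NADH-binding module, was called lower at -1.30 and -1.15, a mean of -1.23 ± 0.11. Of its 2 spots, 1 carried the value and the other had a ratio of exactly 1 on both arrays, so the call rests on 1 spot. Ndufs7 at 0.01 ± 0.52 and Ndufs3 at 0.64 ± 0.39 were not called. The lowest gene of complex I was Ndufb8 at -1.31 ± 3.50, whose arrays gave 1.16 and -3.79 and so do not give a direction. Of the 8 B subunits 2 were called higher at 24 h, as were 2 of the 12 A subunits. It was 0 of the 2 C subunits, 0 of the 4 S and V subunits and 0 of the 6 assembly factors. Over all genes the share was 3.48%, so a count of 0 in groups this small shows no difference between them.

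In complexes III and IV, which carry electrons from ubiquinone to oxygen, 3 genes were called higher at 24 h and 0 lower. Over all genes the shares were 3.48% and 3.52%. Uqcrfs1, the Rieske iron-sulfur protein of complex III, was at 1.86 and 1.07 at 24 h (1.47 ± 0.56). Cyc1, the cytochrome subunit of the same complex, was at -0.67 and -2.86 (-1.76 ± 1.55), the lowest of the 76 genes, and was not called. Cycs was at 1.51 and 1.90 (1.70 ± 0.28). It was the only gene of the 76 called at both times, and all of its spot values at 24 h, from 0.86 to 2.93, were again above 0.

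Among the subunits of complex IV, Cox7b was at 1.89 and 1.75 (1.82 ± 0.10) and Cox7c at 1.53 and 1.59 (1.56 ± 0.04). These small subunits sit around the core that mitochondrial DNA encodes, and they had the most similar arrays of the called genes. Cox4i1, the largest nuclear-encoded subunit, was at 0.28 and 0.11 (0.19 ± 0.12). The lowest was Cox6b1 at 0.01 and -2.42 (-1.21 ± 1.72), a value that came from 1 array.

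Complex IV has subunits with separate genes for heart and skeletal muscle, Cox6a2, Cox7a1 and Cox8b, and for other tissues, Cox6a1, Cox7a2 and Cox8a. At 24 h Cox8a was at 0.74 and 0.91 (0.82 ± 0.12) and Cox8b at -0.12 and 0.17 (0.03 ± 0.20). Cox7a2 was at 0.78 and 1.33 (1.05 ± 0.39) and Cox7a1 at 0.64 and 1.95 (1.29 ± 0.92), the latter with a single spot at 6.46. The first oligonucleotide of Cox7a1 gave a mean of 0.92 and the second, which holds that spot, 1.67. Cox6a1 was at -0.44 and 1.01 (0.29 ± 1.02) and Cox6a2 at -0.12 and -0.51 (-0.31 ± 0.27). Of the 3 pairs, only Cox8a lay above its muscle form on both arrays of 24 h, by 0.85 and 0.74. At 4 h it lay below it on both, with differences of -0.38 and -0.78. Cox7a2l was at 0.08 ± 0.45 at 24 h.

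Complex V had a median of 0.89 at 24 h, the highest of the 5 complexes over the mean of the arrays. The median was 1.32 on the Cy5 array and 0.38 on the Cy3 array, and on the latter that of complex I, 0.41, was higher, so the order came from the Cy5 array. Both arrays lay above 0 for 10 of its 16 genes. Atp5h, of the peripheral stalk, was at 2.87 and 1.25 (2.06 ± 1.15), and Atp5l, of the membrane part, at 1.45 and 2.05 (1.75 ± 0.42). Of the catalytic head and its central stalk, Atp5c1, the gamma subunit, was at 2.27 and 0.94 (1.60 ± 0.94), Atp5b, the beta subunit, at 1.80 and 0.57 (1.19 ± 0.87), and Atp5a1, the alpha subunit, at 0.70 and 1.06 (0.88 ± 0.26). None of these 3 was called, since 1 array of each was under 2-fold. Atp5j2 of the membrane part was at 1.20 and 0.94 (1.07 ± 0.18). The ring subunit genes Atp5g1 and Atp5g2 were at 0.90 ± 1.06 and 0.58 ± 0.64, and Atp5md was the lowest at -1.59 ± 2.01. The arrays of complex V differed more than those of the other complexes, with a median SD of 1.00 at 24 h against 0.41 in complex I and 0.60 over all genes.

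**Figure D2:**
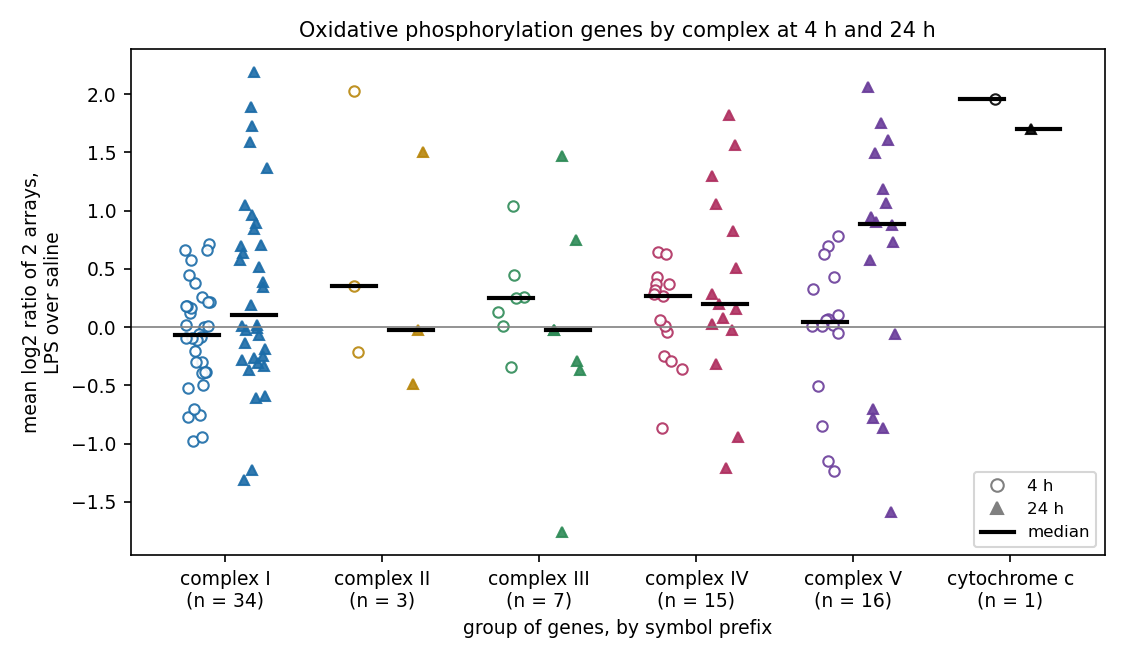
The y axis is the mean log2 ratio of the 2 arrays of a time, LPS over saline, for each of the 76 genes, grouped on the x axis by complex. Open circles are 4 h, filled triangles 24 h, and black bars the medians. The median of complex V is 0.04 at 4 h and 0.89 at 24 h, and that of complex I is -0.07 and 0.10, while on the 24 h array with LPS in Cy3 alone the medians are 0.38 and 0.41.

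Over the 76 genes the median at 24 h was 0.24, against -0.02 over all genes, with 0.52 on the Cy5 array and 0.20 on the Cy3 array. The medians were 0.10 for complex I, -0.02 for complex II, -0.03 for complex III and 0.19 for complex IV. Both arrays lay above 0 for 34 genes (44.7%, against 26.1% of all genes) and below 0 for 11 (14.5%, against 26.1%). The arrays did not carry this equally. At least 2-fold higher were 28 genes on the Cy5 array (36.8%, against 13.0% of all genes) and 19 on the Cy3 array (against 15.6%), and at least 2-fold lower were 3 (3.95%, against 17.6%) and 13 (17.1%, against 13.5%).

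The same asymmetry shows in the genes that were 2-fold on both arrays in opposite directions. There were 7 of them at 24 h (9.21%, against 3.69% of all genes), and all 7 were higher on the Cy5 array and lower on the Cy3 array. They were Atp5e, Atp5k, Ndufa4, Ndufa13, Ndufb3, Ndufb8 and the pseudogene Ndufs5-ps. Ndufa4, first counted in complex I and later placed in complex IV, was at 1.12 and -1.14. Atp5k was at 2.07 and -3.47. A dye effect of the oligonucleotide was not tested here, and these genes have no direction. Across the 76 genes the 2 arrays of 24 h correlated at only 0.12, as did those of all genes at 0.12, a description across genes that share arrays.

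**Figure D3:**
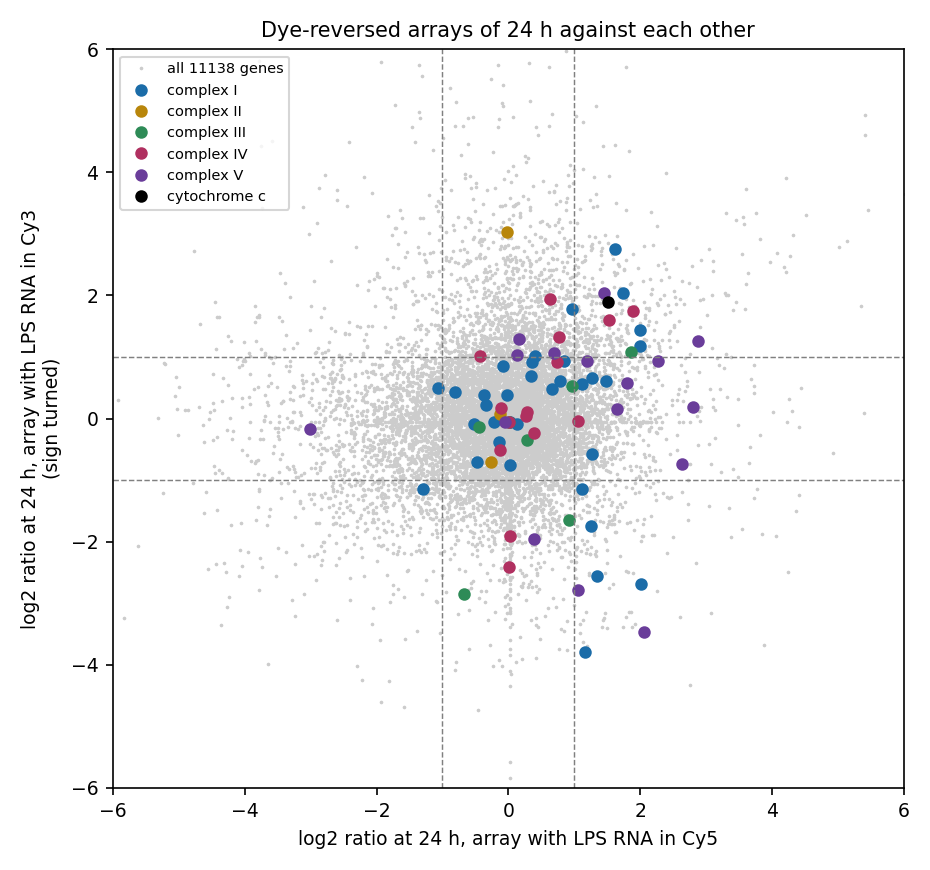
The x axis is the log2 ratio of LPS over saline on the 24 h array with LPS in Cy5 and the y axis that on the array with LPS in Cy3, sign turned, with all 11138 genes in grey (11 lie outside the axes) and the 76 genes in colour by complex. Dashed lines mark 2-fold. The upper right corner holds 10 of the 76 genes, the lower left 1 and the lower right 7.

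With only oligonucleotides whose spots lay within 0.5 log2 units on both arrays, 32 of the 76 genes were left, of which 7 were called higher (21.9%, against 5.49% of the 3607 genes left) and 0 lower (against 4.96%). Their median was 0.52, against 0.01. Ndufb4 was called by this rule through 1 of its 2 oligonucleotides, whose mean was 1.88, while the other gave -0.47. Atp5j2 was also called, with 1.00 on the Cy3 array once the genes left were centred anew, against 0.94 before. Ndufa11, Ndufb11, Cox7b, Atp5h and Cycs, called higher with all spots, were not among the genes left. Apart from this, 53 of the 76 genes had no spot with a ratio of exactly 1 on any array, and 23 had at least 1. The median at 24 h was 0.71 for the 53 genes, against 0.01 over all genes without such a ratio, and -0.25 for the 23, against -0.08 over all genes with one. Both arrays of 24 h lay above 0 for 34 of the 53 (64.2%, against 28.5% of all genes without such a ratio) and for 0 of the 23 (against 18.8% of all genes with one).

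The comparison of the times asked which genes answered LPS differently at 24 h and at 4 h. A call here needed a gap of 1 log2 unit or more between the means, and arrays of the times that did not overlap. By this measure 19 of the 76 genes were higher at 24 h (against 9.43% of all genes) and 4 lower (5.26%, against 10.3%). The labels do not say whether the times shared saline mice. The 19 genes were 9 of complex I, 1 of complex III, 3 of complex IV and 6 of complex V. The spots did not overlap between the times for 13 of the 19 (17.1% of the 76 genes, against 4.06% of all genes), and for 1 of the 4, Cox6b1 (1.32%, against 4.97%). The latter rests on the recurring value, which both spots of Cox6b1 had on the Cy3 array of 4 h and the Cy5 array of 24 h, so those arrays show no separation.

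Ndufa11 had the largest difference, 2.57, from -0.31 and -0.46 at 4 h to 1.63 and 2.75 at 24 h. Ndufb11 also differed by 2.57, from -0.58 and -1.38 to 2.00 and 1.18. In both genes all arrays of 4 h lay below 0 and all of 24 h above 0. Ndufb5, at -0.23 and 0.04 at 4 h, differed by 1.99, and Ndufa2, at 0.36 and -0.36 at 4 h, by 1.72. Ndufc1 went from -0.23 and -0.75 to 1.49 and 0.61, and Ndufb2 from -0.02 and -0.20 to 0.96 and 1.77, differences of 1.54 and 1.48. Both are small subunits of the membrane arm, and their spots did not overlap between the times. Ndufa6 went from -0.12 and -0.66 to 1.12 and 0.56, and Ndufb4 from -0.37 and -0.39 to 0.40 and 1.01, differences of 1.23 and 1.09 with spots that overlapped. The oligonucleotides of Ndufb4 went opposite ways, with means from 0.32 to -0.47 and from -1.08 to 1.88, so they do not share a direction. The assembly factor Ndufaf5 went from -0.27 and -0.33 to 1.27 and 0.66, a difference of 1.26, but its spots at 24 h ran from -1.27 to 2.60.

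In complex V, Atp5j, a subunit of the peripheral stalk, differed by 1.96, from -0.67 and -1.80 at 4 h to 0.17 and 1.29 at 24 h. Atp5g1 went from -1.52 and -0.17 to 1.65 and 0.15, a difference of 1.75 in which each second array was near 0. Atp5h, at 0.09 and 0.77 at 4 h, differed by 1.63, Atp5c1, at 0.65 and 0.00, by 1.28, Atp5b, at 0.08 and 0.05, by 1.12, and Atp5j2, at 0.42 and -0.30, by 1.01. These 6 genes span the ring, the central stalk, the catalytic head, the peripheral stalk and the membrane part. In complex IV, Cox8a differed by 1.69, from -0.82 and -0.92 to 0.74 and 0.91, with small SDs at both times. Cox7a1, at -0.02 and -0.47 at 4 h, differed by 1.54, Cox7b by 1.18, and Uqcrfs1 of complex III, at -0.27 and 0.76 at 4 h, by 1.22.

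Lower at 24 h than at 4 h were Cyc1, by -2.21, Ndufv2, by -1.88, Cox6b1, by -1.52, and Uqcrh, by -1.06. At 4 h Cyc1 was at 0.90 and 0.00, Ndufv2 at 1.30 and 0.01, and Cox6b1 at 0.61 and 0.01, so each had an array near 0. Uqcrh was at 0.29 and -0.35 at 24 h. Cyc1, Ndufv2 and Uqcrh had spots with a ratio of exactly 1. Cycs differed by only -0.25, less than the SD of its arrays at 4 h. Both arrays lay above 0 at 24 h and below 0 at 4 h in 11 of the 76 genes (14.5%, against 6.46% of all genes), and the other way round in 4 (5.26%, against 5.84%). The promoters of the 19 genes held the NRF1 letters in 6 of 18 cases and those of the other genes in 9 of 46, and the ETS letters in 3 of 18 and 13 of 46.

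**Figure D4:**
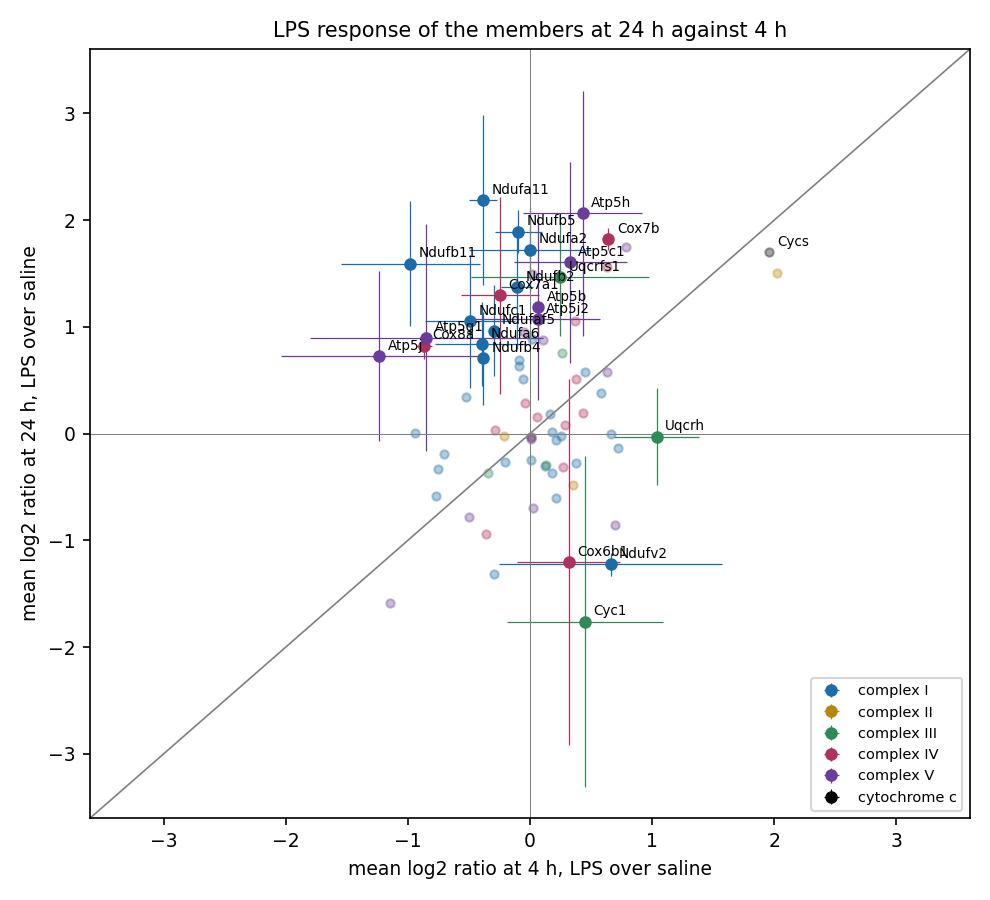
The x axis is the mean log2 ratio of LPS over saline at 4 h and the y axis that at 24 h for the 76 genes, coloured by complex. Genes called between the times are labelled and have bars of 1 SD of the 2 arrays, Cycs is labelled too, and the diagonal marks equal response. The 19 genes higher at 24 h lie above the diagonal and cluster between -1.23 and 0.64 at 4 h.

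Other genes of mitochondrial energy metabolism, were taken in lists chosen by function. At 24 h 4.55% of the assembly factors, 15.4% of the genes of pyruvate dehydrogenase and the citrate cycle, 10.5% of the carriers, 4.17% of the import and folding genes and 7.14% of the genes of cytochrome c release were called higher, against 3.48% of all genes, and none lower. Between the times 4 assembly factors were higher at 24 h and 1 lower, as were 3 and 1 of the citrate cycle list, 2 and 1 of the carriers, 4 and 3 of the import genes and 2 and 0 of the cytochrome c release list, against 9.43% and 10.3% of all genes. Of 22 assembly factors outside the 76 genes, 0 were called at 4 h and Cox17, which delivers copper to complex IV, was higher at 24 h (2.20 ± 0.08, and 1.00 ± 0.15 at 4 h). Of 13 genes of pyruvate dehydrogenase and the citrate cycle, the succinyl-CoA ligase subunit Suclg1 at 1.77 ± 0.09 and Dld at 1.16 ± 0.16 were higher at 24 h. Of 19 carriers and genes of quinone entry, Slc25a4, which exchanges ADP for ATP across the inner membrane, was at 2.41 ± 0.70 at 24 h and -0.74 ± 0.87 at 4 h. Vdac3, a channel of the outer membrane, was at 1.58 ± 0.80 at 24 h, and Vdac2 at 1.38 ± 0.28 at 4 h. The medians of these 3 lists at 24 h were 0.02, 0.38 and 0.33.

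Of 24 import and folding genes, Timm23 was higher at 4 h (1.35 ± 0.01) and Tomm7 at 24 h (2.05 ± 1.11), and the list's medians were -0.04 and 0.27. None of 18 regulators of mitochondrial gene expression was called at 4 h or 24 h. Between the times, the nuclear receptor Esrra was higher at 24 h, from -0.45 ± 0.19 to 1.06 ± 0.33, and the coactivator Ppargc1a and the ETS factor gene Gabpa were lower by -1.14 and -1.80. At 4 h Gabpa was at 0.67 and 2.57 and Ppargc1a at 0.10 and 0.00. The shares of this list were 5.56% higher and 11.1% lower, against 9.43% and 10.3% of all genes, so these calls do not set the list apart. Among 14 genes of cytochrome c release and the apoptosome, Bad was higher at 24 h (1.23 ± 0.01) and 0 were called at 4 h, when Cycs was. No gene of the mitochondrial DNA was among the named genes, so the subunits it encodes were not analysed here.

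Markers of other cells of the heart were set beside these values, as ratios, since the table holds no intensities from which the presence of a cell type could be read. Of 26 cardiomyocyte genes 0 were called at 4 h and Ryr2 was lower at 24 h (-1.40 ± 0.11), with medians of -0.13 and -0.02 and means from -1.40 to 0.68 at 24 h. The neutrophil genes S100a8 (2.59 ± 1.17), S100a9 (1.55 ± 0.08) and Fpr2 (1.20 ± 0.08) were higher at 24 h and Ngp (-1.62 ± 0.82) lower, in a list of 12 with a median of -0.10. This is 3 of 12 genes higher, against 3.48% of all genes. Coro1a of the monocyte and macrophage list was at 2.73 ± 1.70, Cd5 of the lymphocyte list at -1.997 ± 1.00, Klf1 and Car1 of the erythrocyte list at 2.01 ± 0.24 and -1.75 ± 0.11, and Mgp of the fibroblast list at 1.80 ± 0.91. Of 19 endothelial genes Cldn5 was higher at 4 h (1.29 ± 0.10), Kdr and Eng were lower (-1.89 ± 0.75 and -1.87 ± 0.84), and 4 were higher at 24 h, Gpihbp1 at 4.06 ± 0.21, Eng at 3.91 ± 0.85, Kdr at 2.21 ± 0.48 and Cav1 at 1.15 ± 0.19, with a median of 0.32. The endothelial genes higher at 24 h were 21.1% of their list, a larger share than the 13.2% of the 76 genes. The medians at 24 h were -0.48 over 15 monocyte and macrophage genes, -0.26 over 9 lymphocyte genes, 0.71 over 5 erythrocyte genes, -0.15 over 8 fibroblast genes and 0.15 over 8 genes of smooth muscle and pericytes. Gpihbp1, Eng, Kdr and Cav1 had means below 0 at 4 h, while the median of the 19 endothelial genes was -0.02 at that time. The part of these markers in the result was not tested.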

How the data were processed

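The deposited table held log2 ratios of the dyes for 32448 spots on each of 4 arrays, with a median of 0 on each, as the values show. What the authors did between scanner and ratio, background correction, dye normalization and filters included, was not given in the sources used here. Without intensities, dim and bright spots look alike, and precision is limited by having 4 arrays. The members and gene lists were chosen with earlier results of these data known. Adjacent spots held the same oligonucleotide. The sign of arrays with LPS in Cy3 was turned, spots were averaged per oligonucleotide and oligonucleotides per gene, and the median over genes was subtracted from each array (pandas 2.3.3). The platform annotation gave 1 symbol for 24344 spots, several for 98 and none for 8006, which it does not list. The identifiers of 75 of the 76 genes matched the RefSeq table of GRCm38.p6, which changed 0 symbols.

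The files name no genome build, so coordinates are those of the RefSeq promoters. Named were all members called at 4 h, at 24 h or between the times, the tissue isoforms, the highest and lowest gene of each complex, and called genes of the other lists, at most 4 per list and time. Genes named outside this rule, such as core subunits, uncalled genes with agreeing spots and genes in opposite directions, were chosen after their values were seen. The code for the calls was run on simulated spots with effects larger than the mean of any member. That run checked the code, and the calls made here gain no weight from it. Alternatives were other scalings, no centring, unturned signs, spot filters, a 1.5-fold threshold, single arrays, and limma 3.58.1 with the arrays as separate samples and Benjamini-Hochberg adjustment.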

Additional observations from a re-analysis of the deposited data

Results flagged for a closer look

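In 11 of the 76 genes both arrays of 4 h lay below 0 and both of 24 h above 0 (14.5%, against 6.46% of all genes). LPS and saline thus stood in opposite order at the times, and all 11 were called between them. Cox7a1 and Ndufb2, each at -0.02 on the Cy5 array of 4 h, were too near 0 there to be flagged, which left 9. The differences, 24 h minus 4 h, were 2.57 for Ndufa11 and 2.57 for Ndufb11, 1.96 for Atp5j, 1.75 for Atp5g1, 1.69 for Cox8a, 1.54 for Ndufc1, 1.26 for Ndufaf5, 1.23 for Ndufa6 and 1.09 for Ndufb4. The difference was not tested. In Ndufa11, Ndufb11, Atp5j, Cox8a and Ndufc1 the spots of the times did not overlap, whereas in Atp5g1, Ndufaf5, Ndufa6 and Ndufb4 they did. The oligonucleotides of Ndufb4 went opposite ways, from 0.32 to -0.47 and from -1.08 to 1.88, so its order at the times is not settled.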

How the results depend on the processing

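Of 37 values of named genes under alternatives, 304 of 352 kept their direction within the array spread, 29 moved beyond it and 19 reversed, all with the sign of the LPS-in-Cy3 arrays not turned. Those were, at 4 h, Atp5md at 0.14 and Cycs at -0.50. At 24 h they were Ndufa11 at -0.56, Atp5l at -0.30, Cycs at -0.19, Ndufb5 at -0.14 and Cox7c at -0.032. Between the times they were Atp5j at -1.13, Cox7a1 at -0.88, Ndufa11 at -0.64, Ndufb2 at -0.50, Ndufb4 at -0.32, Atp5j2 at -0.23, Cox8a at -0.14, Ndufa2 at -0.077, Ndufb5 at -0.0066, Uqcrh at 0.57, Cyc1 at 0.64 and Cox6b1 at 0.91. By construction, that setting averages a dye-reversed pair with opposed signs. Leaving out an array could neither move nor reverse a called value, since the shift is always smaller than the SD of the pair. For a gene with a single oligonucleotide the median over spots equals the mean, apart from centring. These settings add to the 304 by construction, so the 304 does not measure how stable the values are.

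With unturned signs 1 gene was called at 4 h instead of 3 (against 1.42% of all genes). With agreeing spots it was 1 of 38 (against 3.12% of the 5039 genes left). Neither was among the 3. The count was 9 at 1.5-fold (against 8.45% of all genes) and 0 with every spot (against 1.57%). It was 9 on the first array alone (against 20.8%) and 16 on the second (against 12.7%). At 24 h the 11 became 7 with unturned signs (against 3.69% of all genes), none of them among the 11. The count was 7 of 32 with agreeing spots, 23 at 1.5-fold (against 16.2% of all genes), and 31 to 32 on single arrays. The shares of all genes for agreeing spots and single arrays are those given with the 24 h values above. The 23 between the times became 7 with unturned signs (against 11.7% of all genes) and 10 within each dye orientation (against 10.7%). With agreeing spots the count was 6 of 18 (against 22.7% of the 2041 genes left). With every spot the 23 became 14, against 4.06% of all genes higher and 4.97% lower. With limma, arrays taken as separate samples, 0 of all 11138 genes passed at each of the 3 comparisons after Benjamini-Hochberg adjustment, the members included. The smallest adjusted p of a member was 0.864, 0.391 and 0.804. Unadjusted, 1, 17 and 7 members passed (1.32%, 22.4% and 9.21%, against 4.26%, 10.1% and 5.73% of all genes).

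The median of the 76 genes at 4 h, 0.04, was 0.078 with arrays scaled to 1 spread, 0.088 with quantile normalization, 0.024 with unturned signs, 0.054 without ratios of 1, 0.076 with agreeing spots, 0.060 for structural subunits and 0.014 to 0.028 on single arrays. At 24 h, 0.24, it was 0.091 with unturned signs, 0.42 without ratios of 1, 0.52 with agreeing spots and 0.20 to 0.52 on single arrays. Between the times, 0.16, it was 0.48 without ratios of 1, 0.66 with LPS in Cy5 and 0.12 to 0.46 with an array left out, highest without the 24 h array with LPS in Cy3. The cause of these changes was not tested. No paired analysis was possible because replicate numbers were given in accession order, and only the dye orientation is shared between the times.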
